A study of Mus musculus with 4 samples.

Results

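Genes that mark or drive the mesenchymal state were examined in HFSCs, the cells grown from mouse hair follicles, after 10 and after 48 passages. They were taken by gene symbol and numbered 9 of the 24346 symbols listed in every library. The structural markers were Vim, Fn1 and Cdh2, and the transcription factors were Zeb1, Zeb2, Snai1, Snai2, Twist1 and Twist2. Both groups were C3H/HeN cells that had been sorted from adult dorsal skin as CD49f+ CD34+ and then passaged in the serum-free medium M-CnT, and the groups differed in passage number (10p-HFSCs and 48p-HFSCs, 2 libraries each). No treatment or genetic change was given for either group. The labels do not say whether the libraries of a group came from separate cultures, so that p-values measure the spread between these libraries, which may be technical.

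Epithelial-mesenchymal transition is the programme by which epithelial cells loosen their junctions and take on the shape and matrix of mesenchymal cells. The ZEB, SNAIL and TWIST proteins drive it by repressing epithelial genes such as Cdh1 (E-cadherin) through short DNA motifs called E-boxes, while vimentin filaments, fibronectin and N-cadherin are the products by which the mesenchymal state is usually recognised. Keratinocytes are epithelial, but in culture and at wound edges they can turn on part of this set, and Snai2 is a normal product of basal keratinocytes.

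The set was split in these cells. Vim was abundant in 10p-HFSCs and fell about 113-fold in mean FPKM in 48p-HFSCs. Snai2 was abundant in all 4 libraries. Fn1 was low, Twist2 was near 0 in 10p-HFSCs and higher in 48p-HFSCs without passing a test, and Cdh2, Zeb1, Zeb2, Snai1 and Twist1 stayed under an FPKM of 1 in every library. FPKM is the number of fragments of a gene divided by its exon length and by a measure of the size of the library. Levels can thus be compared between genes of different length within a library. Between libraries the comparison rests on the scaling, since their summed FPKM differed.

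Values were compared on the log2(FPKM + 1) scale with limma, and calls needed a Benjamini-Hochberg adjusted p-value under 0.05 and a change of at least 1 on that scale. This scale understates the change of genes with low FPKM. With 2 libraries in each group, a gene that was not called is not shown to be unchanged. A gene was tested if at least 2 libraries reached an FPKM of 1, which left 11018, and 3 of the 9 genes were among them, Vim, Fn1 and Snai2. Of all genes tested, 9.15% were called lower and 10.8% higher in 48p-HFSCs, against 1 and 0 of these 3 genes. Rescaling each library to the same sum (TPM) moved the share of calls that were lower from 45.9% to 56.6%. The share called lower ran from 1.27% without replicate 1 of 10p-HFSCs to 17.02% without replicate 1 of 48p-HFSCs, and the call of Vim was made each time. With 2 libraries against 2, an exact two-sided permutation test of a single gene cannot go below 0.333. The summed FPKM of the libraries ran from 581516 to 1414953, and their depth, read from the most common ratio between low values, was 71.6%, 82.9% and 46.7% of that of replicate 1 of 10p-HFSCs for replicate 2 of 10p-HFSCs and replicates 1 and 2 of 48p-HFSCs. That ratio reflects the library size by which the fragments were divided, which may not be the mapped total. The absolute depth is unknown, so no counting interval or floor is given.

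**Figure D1:**
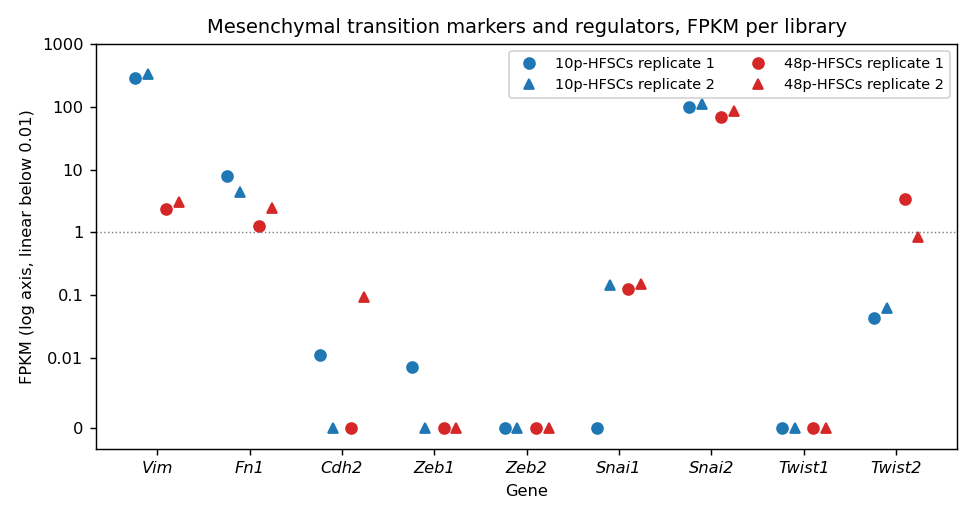
FPKM of each of the 9 genes (x axis) in each library on a log axis that is linear below 0.01, with circles for replicate 1, triangles for replicate 2, blue for 10p-HFSCs and red for 48p-HFSCs. The dotted line marks an FPKM of 1. Vim drops from 284 and 327 to 2.35 and 3.08, Snai2 lies between 69.9 and 111 in all libraries, and Zeb2 and Twist1 are listed at 0 throughout.

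Vim, on chromosome 2 of mm10 from 13573927 to 13582826, encodes vimentin, the intermediate filament protein of mesenchymal cells. Its FPKM was 284 and 327 after 10 passages and 2.35 and 3.08 after 48 passages. Both 48p-HFSC libraries lay far below both 10p-HFSC libraries, and the replicates of each group lay close together. The means were 306 ± 30.7 (SD, n = 2) and 2.71 ± 0.516 (SD, n = 2), and the ratio between single libraries ran from 92.2 to 139. The log2 difference was -6.37 (standard error 0.26, 95% interval -7.001 to -5.74, limma adjusted p = 0.00056), the second most negative of the 11018 genes tested. In 10p-HFSCs Vim ranked 251st and 243rd by FPKM among the 24346 symbols, and in 48p-HFSCs it ranked 9681st and 8554th. In bulk RNA, fewer cells that express a gene and less RNA of it per cell cannot be told apart.

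The drop was also seen within each library, where no scaling between libraries enters. Keratins are the intermediate filament proteins of epithelial cells, and for every 100 FPKM summed over 52 keratin symbols there were 7.09 and 9.72 FPKM of Vim after 10 passages, and 0.0108 and 0.0204 after 48. This ratio holds the change of the keratins too, whose summed FPKM was 4004 and 3367 after 10 passages and 21701 and 15120 after 48. Against Snai2, which had a lower FPKM than Vim in both 10p-HFSC libraries, the order was turned, and in the 48p-HFSC libraries Snai2 was 29.7 and 28.0 times as high as Vim.

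**Figure D2:**
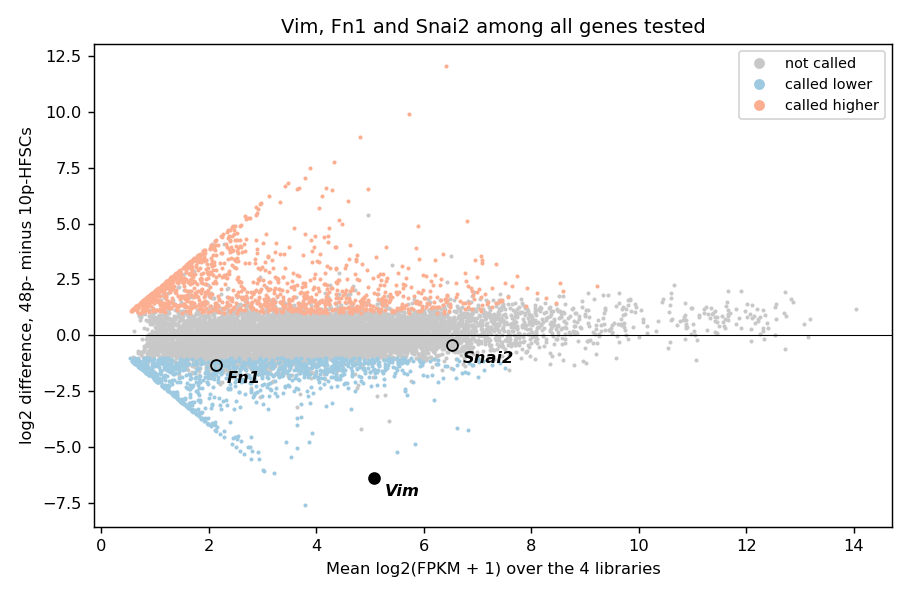
The log2 difference of 48p-HFSCs minus 10p-HFSCs (y axis) against the mean log2(FPKM + 1) of the 4 libraries (x axis) for the 11018 genes tested, each a dot, in blue where called lower and red where called higher. Vim, the filled circle at -6.37, lies at the lower edge of the plot, while Fn1 at -1.32 and Snai2 at -0.44 are open circles, which stand for genes that were not called.

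The sequence before the start of Twist2 is shown because this gene had values that went the other way from Vim. It is the 250 bases before the RefSeq start (GRCm38.p6, plus strand), at chr1:91801211-91801460, and capitals mark the GC boxes GGGCGG or CCGCCC, to which SP-family activators bind. In GENCODE M21 it lies in no untranslated region, and the antisense gene Gm29100 overlaps the Twist2 gene.
Twist2: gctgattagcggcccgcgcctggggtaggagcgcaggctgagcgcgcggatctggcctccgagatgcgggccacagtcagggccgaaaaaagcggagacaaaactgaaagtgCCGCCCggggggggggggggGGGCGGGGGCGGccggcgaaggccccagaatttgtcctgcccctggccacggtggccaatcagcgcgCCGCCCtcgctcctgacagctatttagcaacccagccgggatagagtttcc
The sequence held 4 GC boxes, 23 CpG dinucleotides and 68.8% G and C. A GC box, searched on both strands, was found in 35.7% of 32851 windows of 300 bases over all RefSeq genes, each from 250 bases before to 50 after the start, and in 46.8% of the 20754 windows of genes in the files. Windows were found for Vim, Zeb2, Snai1, Twist1 and Twist2 of the set, 8 windows in all. A GC box was in 62.5% of these 8, among them windows of Zeb2 and Twist1, which were listed at 0 FPKM in every library. The E-box CACCTG or CAGGTG, the motif of SNAIL and ZEB proteins, was in 1 of the 8, that of Snai1, and in 20.2% of all windows.

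The genes with the profile most like that of Vim, by the distance between centred log2(FPKM + 1) values over the 4 libraries, were Efnb2 (distance 0.449), Egln3 (0.461) and Col1a2 (0.499). They encode the ligand ephrin-B2, an oxygen sensing prolyl hydroxylase and a chain of type I collagen. All 3 were called lower, and with 2 libraries in each group any gene that drops as far has nearly the same profile. After 48 passages the FPKM of Egln3 and Col1a2 was listed as 0 throughout, whereas Vim was still detected there.

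Fn1 encodes fibronectin, a matrix glycoprotein that cells bind through integrins, and lies on chromosome 1 of mm10 from 71585520 to 71653200. It had an FPKM of 8.03 and 4.34 after 10 passages and 1.27 and 2.42 after 48. Both 48p-HFSC libraries were below both 10p-HFSC libraries, which was also so for 34.3% of all genes tested, but the 10p-HFSC replicates were themselves far apart. The log2 difference was -1.32 (standard error 0.38, 95% interval -2.25 to -0.39), and the gene was not called (limma adjusted p = 0.059). Fn1 was far below Vim in 10p-HFSCs, at 2.83% and 1.32% of its FPKM, and in 48p-HFSCs it was at 54.3% and 78.5%.

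Cdh2 encodes N-cadherin, which takes the place of E-cadherin in many mesenchymal cells. It was at an FPKM of 0.011 in the first 10p-HFSC library and 0.094 in the second 48p-HFSC library, and was listed at 0 in the other 2 libraries. After division by the relative depth, the higher of these values was 4 times the lower, so that both are of the size that a few fragments give. The groups overlapped, and the gene did not pass the filter on low values. Without a filter its log2 difference was 0.06 (95% interval -0.09 to 0.21) with a limma adjusted p of 0.54. Cdh1, which encodes E-cadherin, was at 93.1 and 75.2 after 10 passages and 102 and 113 after 48, a log2 difference of 0.36 (95% interval -0.32 to 1.04, limma adjusted p = 0.39). The interval leaves room for a 2-fold higher level of Cdh1 in 48p-HFSCs. The difference was -0.22 when each library was rescaled to the same sum, which moved the median of all genes from -0.03 to -0.56.

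Snai2, on chromosome 16 of mm10 from 14705852 to 14709385, encodes the zinc finger repressor SLUG and was the highest of the 6 regulators in every library. It had an FPKM of 101 and 111 after 10 passages and 69.9 and 86.4 after 48. The 48p-HFSC values were both below the 10p-HFSC values, by less than 2-fold for any pair of libraries (ratios of 1.17 to 1.59). The log2 difference was -0.44 (standard error 0.27, 95% interval -1.11 to 0.24) and the gene was not called (limma adjusted p = 0.29). The difference was -1.02 after rescaling to the same sum (TPM), a step that moved the median of all genes from -0.03 to -0.56. Relative to that median it was -0.41 without and -0.46 with the rescaling. Snai2 ranked 742nd and 744th among all symbols in 10p-HFSCs and 1179th and 1341st in 48p-HFSCs.

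Snai1, its close relative SNAIL, was listed at 0 in replicate 1 of 10p-HFSCs and at 0.148 in replicate 2, and at 0.128 and 0.151 in 48p-HFSCs. The libraries overlapped, and the values above 0 were within 1.5 times of each other after division by the relative depth. Snai2 therefore made up nearly all of the RNA of this pair of genes in all 4 libraries. Another relative, Snai3, had an FPKM of 2.47 and 3.05 after 10 passages and 4.38 and 5.59 after 48 and was not called (limma adjusted p = 0.14).

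Zeb1 and Zeb2 encode zinc finger and homeodomain repressors of epithelial genes. Zeb1 was at an FPKM of 0.0087 in one 10p-HFSC library and was listed at 0 in the other 3 libraries. Zeb2 was listed at 0 in all 4 libraries, as was Twist1, which encodes a basic helix-loop-helix factor of mesenchymal development. At this depth no difference between the groups could be seen for these 3 genes. The partners of TWIST proteins, Tcf3, Tcf4 and Tcf12, were all detected in every library at an FPKM between 1.49 and 40.8.

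Twist2, a factor of dermal fibroblasts in skin, on chromosome 1 of mm10 from 91801461 to 91848028, was the gene of the set with higher values after long-term culture. It had an FPKM of 0.044 and 0.062 after 10 passages and 3.35 and 0.849 after 48. The 48p-HFSC values were each higher than either 10p-HFSC value, which was so for 31.7% of all genes tested, but the 48p-HFSC replicates were themselves far apart, with an SD of 1.77 about a mean of 2.10. After division by the relative depth the 10p-HFSC values were equal, and those of 48p-HFSCs were 63 and 9 times as high, all whole multiples of the smallest. Twist2 did not pass the filter on low values, since replicate 2 of 48p-HFSCs was under an FPKM of 1. With the filter set to a mean FPKM of at least 1, its log2 difference was 1.43 (95% interval 0.30 to 2.56) with a limma adjusted p of 0.083, and without a filter the adjusted p was 0.12.

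By mean FPKM the order in 10p-HFSCs was Vim, Snai2 and Fn1, whose libraries did not overlap, followed by Snai1, Twist2, Cdh2 and Zeb1, all at or under 0.148, with Zeb2 and Twist1 at 0. In 48p-HFSCs Snai2 stood alone at the top. The next were Vim (2.35 and 3.08), Twist2 (0.849 and 3.35) and Fn1 (1.27 and 2.42), and the ranges of these 3 genes overlapped. Within each 48p-HFSC library Vim was higher than Fn1, whereas Twist2 was above both in replicate 1 and below both in replicate 2. Summed over the 9 genes, the FPKM was 393 and 443 after 10 passages and 76.98 and 92.9 after 48, and Vim and Snai2 made up most of the former while Snai2 made up most of the latter.

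The labelled cell type was checked against marker genes. All 10 keratinocyte markers were at an FPKM above 10 in every library, with Krt5 between 1473 and 8156 and Krt14 between 1217 and 3896. Of 7 markers of hair follicle stem cells, 5 were under an FPKM of 1 in all libraries, among them Cd34, on which the cells had been sorted, at 0.145 and 0.234 after 10 passages and 0.104 and 0.0925 after 48. The 2 that were tested were Itga6, the CD49f on which the cells had also been sorted, called higher (31.4 and 20.8 against 101 and 79.0), and Sox9, called lower (45.6 and 44.2 against 20.2 and 8.31). Of the 10 keratinocyte markers, all tested, 3 were called higher and 0 lower, against 10.8% and 9.15% of all genes. The 3 were Itga6, Sfn and Itgb4. Not called were 7, of which Cdh3 (-1.04), Dsg3 (-0.41) and Krt15 (-0.22) had negative log2 differences. None of Itga6, Sfn, Itgb4 and Sox9 was called without replicate 1 or without replicate 2 of 10p-HFSCs. Under TPM rescaling Itga6 and Itgb4 were not called (limma adjusted p = 0.14 and 0.51). Without a filter on low values Sox9 and Itgb4 were not called (limma adjusted p = 0.085 and 0.060). Itgb4 was also not called with a filter on mean FPKM, quantile normalization or a prior variance without trend. By qRT-PCR, the paper reports that Sox9 and Lhx2 rose significantly in long-term culture while Cd34 and Krt15 expression was maintained. It also reports that most of the long-term cultured cells were immunopositive for the Cd34 protein. The FPKM of Sox9 went the other way. Lhx2, also among the 7 stem cell markers, was at 0.024 or less in every library. The reason for these differences was not tested. Krt15, another bulge marker, was at 136 and 82.6 after 10 passages and 425 and 18.8 after 48, where the replicates lay on both sides of 10p-HFSCs. As vimentin and Twist2 are also products of fibroblasts, 12 fibroblast markers were examined. Their summed FPKM was 69.0 and 60.3 after 10 passages and 4.14 and 1.30 after 48. Col1a2, already picked as near to Vim in profile, made up nearly all of it in 10p-HFSCs (67.6 and 59.3) and Twist2 most of it in 48p-HFSCs. The other 10 markers summed to 1.36 and 0.943 after 10 passages and 0.788 and 0.454 after 48, with Dcn, Lum and Thy1 listed at 0 throughout, Pdgfra at 0.284 or less and Col1a1 at 0.903 or less. Among these 10, Dpt and Fbln1 were higher in both 48p-HFSC libraries than in both 10p-HFSC libraries, at an FPKM of 0.374 or less. Col1a1 (0.903 and 0.744 against 0.0525 and 0.0466) and Pdgfra (0.284 and 0.0752 against a listed 0) were lower in both. Of all genes tested, 31.7% were higher and 34.3% lower in this way. Endothelial markers summed to between 0.292 and 2.90 per library. The summed FPKM of leukocyte markers was 7.54 and 7.13 after 10 passages and 53.3 and 78.8 after 48, nearly all of it Cd68, a lysosomal protein, while Ptprc was at 0.0711 or less. That of melanocyte markers was 1.503 and 1.43 against 4.06 and 11.9, and that of muscle markers, most of it Des in 48p-HFSCs, was 0.800 and 1.37 against 11.7 and 11.5. The part of such cells in the values of Vim and Twist2 was not tested.

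Other genes of the programme were taken as lists, which were drawn up with earlier results of these data known. They are described by counts beside the shares of all genes given above. Their medians stand beside the median log2 difference of all genes, which was -0.03, and -0.56 under TPM rescaling. Of 14 other transcription factors of epithelial-mesenchymal transition, 8 were tested, 4 were called lower and 0 higher, and their median difference was -1.06. Hmga2, a chromatin protein that acts upstream of Snai1 and Twist1, was at 60.4 and 59.2 after 10 passages and 14.8 and 11.5 after 48, a difference of -2.11 on the log2 scale (SE 0.25, adjusted p = 0.0042 by limma). Klf8, a repressor of Cdh1, fell by 2.22 on the log2 scale from an FPKM of 4.44 and 3.47. Tcf4 fell by 1.28, and so did Tcf3, named after its values were seen, by 1.01, both being partners of TWIST proteins. Under rescaling to TPM 2 of the 8 were called lower, Klf8 and Hmga2, and the calls of Tcf4 (limma adjusted p = 0.11) and Tcf3 were lost. With correction for transcript length and GC content 2 were called lower as well, and the differences of Tcf4 and Tcf3 were then under the 2-fold limit. Of the genes named here and in the lists that follow for a call, Krt18, Ap1m2 and Col1a2 kept it without any 1 library. Each of the others was not called without replicate 1 of 10p-HFSCs (limma adjusted p of 0.052 for Klf8 to 0.49 for Tpm1), and all of them but Klf8 were not called without replicate 2 of that group either. Without replicate 2 of 48p-HFSCs, the calls of Tcf4, Fgfr2 and Tpm1 were also lost, as was that of Tcf3 without replicate 1, and no sign was turned.

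Of 15 cofactors and inhibitors of the regulators, such as the CTBP corepressors and the kinase that marks SNAIL for decay, 14 were tested, 0 were called lower and 1 higher, with a median difference of -0.22. The gene called was Id2, an inhibitor of basic helix-loop-helix factors, at 4.62 and 4.47 after 10 passages and 37.2 and 16.3 after 48. Its call was lost under TPM rescaling (limma adjusted p = 0.16) and without a filter on low values (0.052).

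Other genes of the mesenchymal cytoskeleton and of motility were not called in the direction of Vim. Of 12 such genes 7 were tested, 3 were called higher and 0 lower, and the median difference was 1.23 (0.66 under TPM rescaling). Des encodes desmin, a filament protein of the same class as vimentin, and was at 0.649 and 0.930 after 10 passages and 10.8 and 10.7 after 48, a difference of 2.72 on the log2 scale (SE 0.26, adjusted p = 0.0021 by limma). S100a4, whose call was lost with length and GC correction (limma adjusted p = 0.051), a calcium-binding protein often used to mark fibroblasts, was at 240.2 and 320 after 10 passages and 1378 and 1205 after 48. Tpm1, an actin-binding tropomyosin, rose by a log2 difference of 1.43, a call that was lost under TPM rescaling (limma adjusted p = 0.083). Acta2, Cnn1 and Tagln remained under an FPKM of 1 and Myl9 was listed at 0 in all libraries. Tagln was lower after 48 passages (0.742 and 0.444 against 0.128 and 0.0757), whereas Acta2 was higher (0 and 0.115 against 0.871 and 0.663).

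Of 20 other mesenchymal matrix genes 13 were under an FPKM of 1 in every library, and 7 were tested. Of these 1 was called lower and 1 higher. The median difference was 0.49, and -0.10 under TPM rescaling, where that of all genes was -0.56. Col1a2 fell from 67.6 and 59.3 to a listed 0 in both 48p-HFSC libraries. Col1a1, which encodes the other chain of type I collagen, was under an FPKM of 1 throughout. Its values were also lower after 48 passages (0.903 and 0.744 against 0.0525 and 0.0466). Tgfbi, a matrix protein induced by TGF-b, was at 5.25 and 5.49 after 10 passages and 48.9 and 28.3 after 48, called higher without TPM rescaling and not called with it (limma adjusted p = 0.061). Of 9 genes for receptors and assembly of fibronectin, 6 were tested, 1 was called higher and 0 lower, and the median was 0.66. Itga5, the integrin subunit specific to fibronectin, was at 0.035 and 0 after 10 passages and 6.88 and 5.88 after 48, a difference of 2.86 on the log2 scale (SE 0.24, adjusted p = 0.0015 by limma). Its values thus went the other way from those of its ligand Fn1. Itgb1, the subunit with which it pairs, was at 281 and 206 after 10 passages and 108 and 151 after 48 and was not called (limma adjusted p = 0.12).

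**Figure D3:**
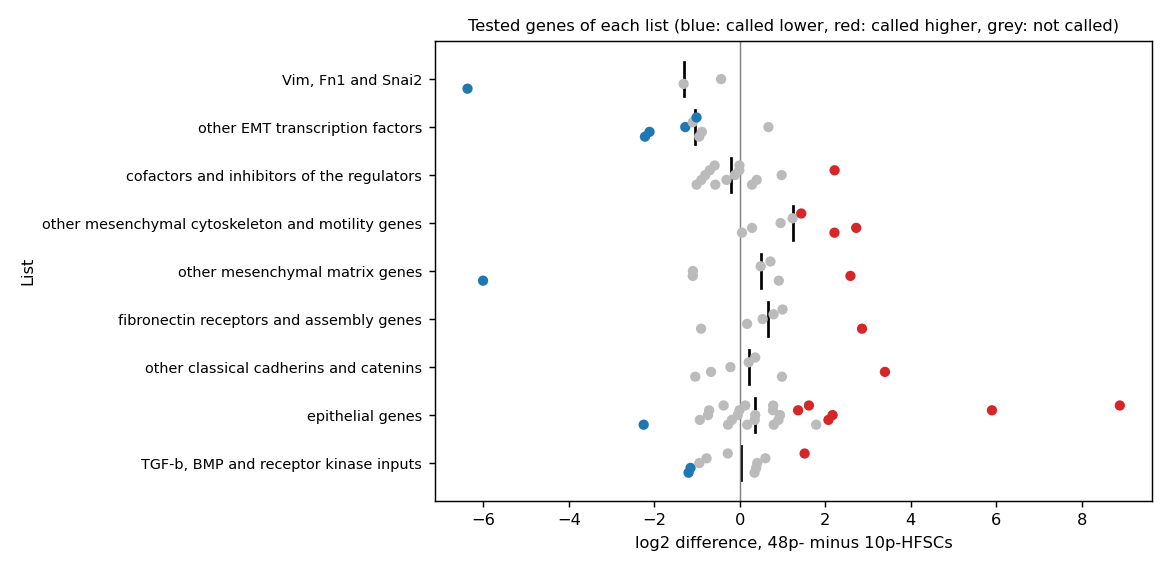
The log2 difference of 48p-HFSCs minus 10p-HFSCs (x axis) for the tested genes of each list (y axis), each a point, in blue where called lower, red where called higher and grey where not called, with a black bar at the list's median. Vim at -6.37 and Col1a2 at -6.01 stand apart on the left, and Krt18 at 8.89 and Ap1m2 at 5.89 on the right.

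Among 11 other cadherins and catenins 7 were tested, and 1 was called higher and 0 lower. Their median was 0.21, and -0.37 under TPM rescaling, where that of all genes was -0.56. Cdh13 encodes T-cadherin, which is tied to the membrane by a lipid anchor, and was at 0.141 and 0.229 after 10 passages and 17.5 and 7.37 after 48, a difference of 3.39 on the log2 scale (SE 0.42, adjusted p = 0.0044 by limma). Cdh3, the P-cadherin of basal keratinocytes, was at 65.5 and 43.0 after 10 passages and 28.8 and 22.1 after 48 and was not called (limma adjusted p = 0.066). Of 16 inputs to the programme, which were TGF-b ligands, receptors and mediators and receptor kinases, 10 were tested, 2 were called lower and 1 higher, and the median was 0.03. Fgfr2 fell by 1.20 and Tgfbr3 by 1.15 on the log2 scale, and Tgfb1 was called higher, at 8.19 and 7.002 against 20.2 and 27.3. Under TPM rescaling the calls of Fgfr2 and Tgfb1 were lost (limma adjusted p = 0.064 and 0.32), and with length and GC correction 0 of the 10 were called lower, Fgfr2 being under the 2-fold limit (-0.99) and Tgfbr3 at an adjusted p of 0.062.

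Epithelial genes that are shut off when the regulators act were examined as a list of 30. Of these 25 were tested, and 6 were called higher and 1 lower. Under TPM rescaling 4 were called higher and 2 lower, and without a filter on low values 4 and 1. With length and GC correction 8 were called higher and 2 lower. The median was 0.36, and -0.13 under TPM rescaling, where that of all genes was -0.56. Krt18, a keratin of simple epithelia, was at 0.286 and 0.285 after 10 passages and 329 and 1120 after 48. Ap1m2, an adaptor subunit for sorting to the basolateral membrane, was listed at 0 in the 10p-HFSC libraries but reached 49.9 and 68.5 after 48 passages. The repressors of mesenchymal genes Ovol1 and Ovol2 went in opposite directions. Ovol1 was at 0.997 and 0.835 after 10 passages and 8.31 and 6.95 after 48, a difference of 2.17 on the log2 scale (SE 0.26, adjusted p = 0.0043 by limma), which was not called under TPM rescaling (adjusted p = 0.081). Ovol2 was at 4.01 and 4.45 after 10 passages and 0 and 0.207 after 48, a difference of -2.25 on the log2 scale (SE 0.25, adjusted p = 0.0031 by limma).

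The sequences before Ap1m2 and Krt18 are shown because these genes had the largest differences of the list and because they carry the E-box. They end where the first untranslated region of GENCODE M21 begins (GRCm38.p6), and lie at chr9:21312338-21312583 on the minus strand for Ap1m2 (246 bases) and chr15:102027966-102028179 on the plus strand for Krt18 (214 bases). Capitals mark CACCTG or its reverse complement CAGGTG.
Ap1m2: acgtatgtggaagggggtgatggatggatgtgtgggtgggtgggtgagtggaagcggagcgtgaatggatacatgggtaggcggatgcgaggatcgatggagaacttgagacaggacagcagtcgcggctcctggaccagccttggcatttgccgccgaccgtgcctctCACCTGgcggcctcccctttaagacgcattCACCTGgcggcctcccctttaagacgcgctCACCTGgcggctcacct
Krt18: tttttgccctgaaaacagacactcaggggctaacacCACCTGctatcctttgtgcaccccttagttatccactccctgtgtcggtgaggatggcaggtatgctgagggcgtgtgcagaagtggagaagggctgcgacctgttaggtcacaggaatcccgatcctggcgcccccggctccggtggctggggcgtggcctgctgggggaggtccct
The Ap1m2 sequence held 3 E-boxes, whose first bases lay 81, 51 and 21 bases before the RefSeq start, and the Krt18 sequence held 1, at 214 bases. Over the windows of 300 bases, 16 of the 20 genes of the list for which a window was found held an E-box in at least 1 window. The share was 22.15% over 17191 genes of the files with a window. The list is made of genes picked for their link to these regulators, no test was made, and a match of letters is not a binding site.

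**Figure D4:**
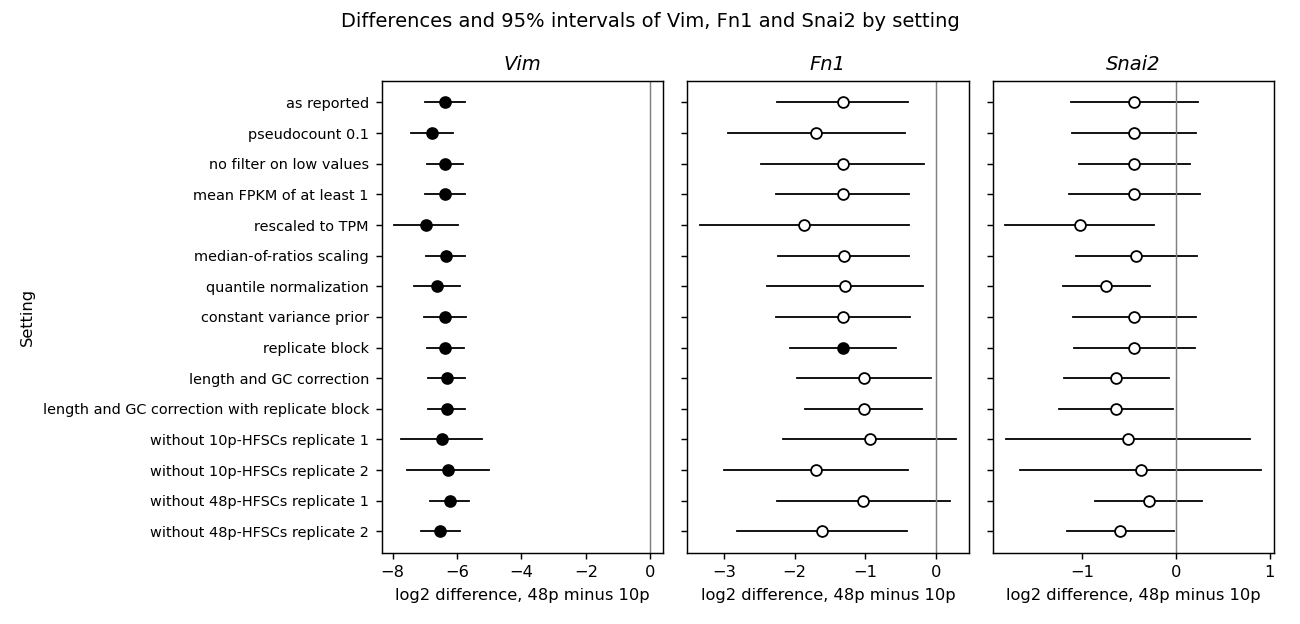
The log2 difference of 48p-HFSCs minus 10p-HFSCs (x axis) and its 95% limma interval (bar) for Vim, Fn1 and Snai2 under the settings listed on the y axis, filled where called and open where not. Vim stays between -6.96 and -6.23 and is called in all of them, Fn1 lies between -1.86 and -0.94, and Snai2 between -1.02 and -0.29.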

How the data were processed

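Polyadenylated RNA of 2 libraries of 10p-HFSCs and 2 of 48p-HFSCs was made into libraries with a stranded kit. The authors mapped single-end reads to mm10 with TopHat and deposited, for each library, the FPKM of each gene symbol. The submitters' processing notes name TopHat2 2.1.1, Bowtie2 2.2.8, SAMtools 0.1.18 and Cuffdiff 2.2.1, whereas the paper's methods name Cufflinks and other versions of Bowtie2 and SAMtools. The annotation and strand setting are not given in the sources used here, and Fn1, Cdh2, Zeb1, Zeb2 and Twist2 overlap genes on the other strand. FPKM values are not counts, so no count test was run.

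The 9 genes and all lists were chosen with earlier results of these data known. Libraries were grouped by their labels. FPKM was analysed as log2(FPKM + 1) for the 11018 genes with at least 1 in at least 2 libraries, by the moderated linear models of limma 3.58.1 (R 4.3.3, trended prior) and Benjamini-Hochberg adjustment over these genes, with calls at an adjusted p under 0.05 and a log2 difference of at least 1. The fit was tested on simulated data with 2 libraries in each group and 200 changed genes, fewer than were called in the real data. Most of the changed genes, and nearly all with a change near that of Fn1, were not called there. The adjusted cutoff is stricter where fewer genes change, so these shares do not carry over to the real fit. Named genes were the 9, up to 3 called genes with the largest differences in each direction from each list, the 3 genes nearest to Vim in profile, and Cdh1, Cdh3, Krt5, Krt14, Cd34, Krt15, Col1a1, Pdgfra and Ptprc. Others (Snai3, Tcf3, Tcf12, Itgb1, Acta2, Cnn1, Tagln, Myl9, Dcn, Lum, Thy1, Dpt, Fbln1, Dsg3 and Lhx2) were named after their values were seen. Gene positions are those of GENCODE M21 (GRCm38, the assembly of mm10), which held 95.7% of the symbols, and promoter windows are those of RefSeq GRCm38.p6, printed without bases that GENCODE places in untranslated regions, which leaves none for Vim. In the files, Patj is listed under an older symbol. Other computations used Python 3.11, pandas 2.3.3 and numpy 2.4.6.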

Additional observations from a re-analysis of the deposited data

How the results depend on the processing

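Vim was called lower under all 14 alternatives, with log2 differences from -6.96 to -6.23 and limma adjusted p-values from 5.5e-09 to 0.041, and 0 genes of the set were called higher under any. The alternatives were a pseudocount of 0.1, no filter or a filter on mean FPKM, a prior variance without trend, scaling by median ratios, by quantiles or to TPM, the replicate number as a block, correction for transcript length and GC content with and without the block, and leaving out each library in turn. Scaling by median ratios left the values nearly as they were (Vim at 280 and 323 after 10 passages, 2.38 and 3.04 after 48), so that alternative adds little. With the replicate block Fn1 was called lower at -1.316 (limma adjusted p = 0.0098), which made 2 of the 3 genes of the set that were tested, where 13.6% of all genes (1497) were called lower against 9.15% without the block. It was not called under the other 13, with adjusted p-values up to 0.42, nor with the block together with length and GC correction (-1.02, adjusted p = 0.060). The replicate numbers share no stated culture or day, and the deviations of same-numbered libraries had a correlation of 0.408 over genes, in a single pair of groups. Snai2 was called under none, and with quantile normalization its adjusted p was 0.037 at a difference of -0.74. Without each library in turn, the difference ran from -6.513 to -6.229 for Vim, from -1.696 to -0.937 for Fn1 and from -0.5905 to -0.2889 for Snai2. The number of genes called over the whole table depended more on the setting. It was 637 lower without a filter, 623 higher under TPM rescaling (against 1008 lower and 1189 higher as reported), and between 140 and 1875 lower and between 35 and 1936 higher without each library in turn. It was lowest without a 10p-HFSC library (140 and 146 lower, 35 and 36 higher) and highest without replicate 1 of 48p-HFSCs. Genes listed at 0 or a few hundredths of an FPKM cannot be compared at this depth. As read from the ratio between low values, depth was lowest in replicate 2 of 48p-HFSCs, but the absolute depth is unknown. The causes of these changes were not tested.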
